A study of Mus musculus with 30 samples.

Results

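Hippocampus RNA of mice fed methylmercury (MeHg) together with selenium was compared between the high and the low dose of MeHg. The members are the 10 libraries whose treatment label is Se_HD or Se_LD, 5 mice each, out of 30 libraries in the series. All are from male BALB/c mice, an inbred strain, and all 10 mice received both selenium and mercury by mouth, so neither group is an unexposed control. The series crosses selenium with no, low or high mercury, and the mice labelled Se_Ctr, given selenium alone, are not used here. The labels give no amount of selenium or mercury for the Se_LD and Se_HD feeds. For the groups without selenium the feed held 0.28 mg (LD) and 5 mg (HD) MeHg per kg, and these 10 libraries, 5 LD and 5 HD, are used below only to ask where the dose effect differs between the diets. The mice were obtained young, individually housed and of the same sex. The study describes the feeding as spanning adolescence and early adulthood, so tissue was not collected at the age of arrival. Each library was made from a single RNA sample, and mercury levels of the Se_LD and Se_HD mice were not analysed here.

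MeHg crosses the blood-brain barrier as a complex with cysteine and binds thiol and selenol groups of proteins. Selenium is built as selenocysteine into a small family of proteins, several of which are antioxidant enzymes, and the selenol of these enzymes is a known target of MeHg. In the brain, microglia and astrocytes are the cells that respond to injury. Microglia then induce complement, Fc receptor and lysosomal genes, and astrocytes induce the intermediate filament Gfap together with some complement and protease inhibitor genes.

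The deposited values are read counts per gene divided by one size factor per library, called normalized counts below, for 21412 genes of the mouse build NCBIM37. Reads on genes lay between 6559334 and 11331272 in Se_LD libraries and between 7313129 and 11270577 in Se_HD libraries, so both groups had a similar depth. Genes were tested with limma on log2 of the normalized count plus 1. Of 18763 genes tested, none passed 0.05 after Benjamini-Hochberg adjustment in limma (minimum 0.202). At an unadjusted p under 0.05 limma called 846 genes (390 up/456 down), which is 4.51% of those tested, 2.08% up and 2.43% down. edgeR likewise gave 0 genes by adjusted p and 853 by unadjusted p, and DESeq2 gave 4 and 662. With sets of consecutive sample titles as a covariate, limma gave 4 and 1070. With no true difference a threshold of 0.05 calls about that fraction of genes, and the 4.51% called is no larger. In this text a gene is said to rise or fall when its unadjusted limma p was under 0.05. Each such call stands against this background of 4.51%, in which no single gene passed the adjustment over all genes in the limma fit without that covariate. The labels do not tie the mice to litters or days, and the p-values measure only the spread between these mice.

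A few genes from different lists are given first, and they are not the genes of lowest p in order. Hivep1, Fgl2, Ctla2a, Chrna4 and Slc17a6, given further on, had a lower unadjusted limma p than Gfap and Vamp1. C4b, a complement component made by glia, rose 1.63-fold, and Gfap, the astrocyte intermediate filament, rose 1.42-fold. Maf, a transcription factor of macrophages and other cells, rose 1.29-fold. Kif5a, a motor of axonal transport, fell to 0.779 times its Se_LD level, and Vamp1, a vesicle protein of the release machinery, fell to 0.775 times. Tshz2, a zinc finger transcription factor, fell most firmly, to 0.467 times.

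C4b (ENSMUSG00000073418, chromosome 17, 34865325 to 34880827) had 262, 228, 188, 296 and 206 normalized counts in the 5 Se_LD mice. In the 5 Se_HD mice it had 349.9, 335, 367, 437 and 418. All Se_HD mice thus lay above all Se_LD mice, and mice 4 and 5 of Se_HD were the highest. The means were 236 ± 43.3 and 381 ± 44 (SD, n = 5 each), and the log2 fold change was 0.70 (standard error 0.12, limma unadjusted p = 2.15e-05, adjusted p = 0.202). Its direction and its unadjusted call were the same in all 25 alternative settings, with log2 fold changes from 0.54 to 0.87. C4b and its neighbour C4a are near-identical copies, and how the counting shared reads between them is not given in the sources used here. C4a had 43.6 ± 12.1 against 48.8 ± 6.33 (SD, n = 5 each) normalized counts (log2 fold change 0.19, limma unadjusted p = 0.325).

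Gfap (ENSMUSG00000020932, chromosome 11, 102748650 to 102762226) had 2116, 2044, 1546, 2042 and 1337 normalized counts in Se_LD mice. In Se_HD mice it had 2264, 2499, 2491, 2909 and 2546. The groups did not overlap, and the Se_LD values fell into mice 1, 2 and 4 close together and mice 3 and 5 lower. Its log2 fold change was 0.50 (standard error 0.12, limma unadjusted p = 0.000535, adjusted p = 0.787). Without Se_LD mice 3 and 5 it was 0.29, with an unadjusted p of 0.00254. Those same 2 libraries hold almost no choroid plexus RNA, as described further on, and the part of this in the result was not tested. In a single fit over the Se_LD, Se_HD, LD and HD groups, which then share one estimate of the spread, the call for Gfap was lost (unadjusted p = 0.136).

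Groups without overlap were found for 128 of the 18763 genes (0.682%), 59 of them higher (0.314%) and 69 lower (0.368%) in Se_HD. With no true difference 5 against 5 mice separate fully with a probability of up to 0.00794, and the share found is no larger. Of the 128 genes, 95 averaged 10 or more normalized counts. Of these 95, 78 also had an unadjusted p under 0.05, 30 up and 48 down. The largest rise among them was in Cd74, the invariant chain of MHC class II. Cd74 had 7.22, 11.7, 3.95, 15.5 and 0 normalized counts in Se_LD and 35.1, 30, 17.9, 63.7 and 19.1 in Se_HD mice. At this level each mouse contributes few reads, and the log2 fold change of 2.33 (standard error 0.60, limma unadjusted p = 0.00142) rests on a Se_LD group near 0. It was 1.68 without Se_LD mouse 5, whose value is 0, and 1.36 without Se_LD mice 3 and 5 (limma unadjusted p = 0.00289). Further rises without overlap were in Ctla2a, a cathepsin inhibitor-like gene (log2 fold change 0.75), in Rgag1 (0.87), in Rbpms, an RNA-binding protein (0.51), and in Dact1, a modulator of Wnt signalling (0.36). Falls without overlap included Ankrd34c (log2 fold change -1.01), the protein kinase Prkch (-0.87), the sialidase Neu3 (-0.86) and the glycosyltransferase Gcnt4 (-0.69). The calls of Rbpms and Dact1 were each lost in 6 of 25 alternatives, and that of Ankrd34c without Se_LD mice 1 and 4 (-0.71, limma unadjusted p = 0.0704). Ctla2a has a close copy, and its reads may be split between the copies.

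**Figure D1:**
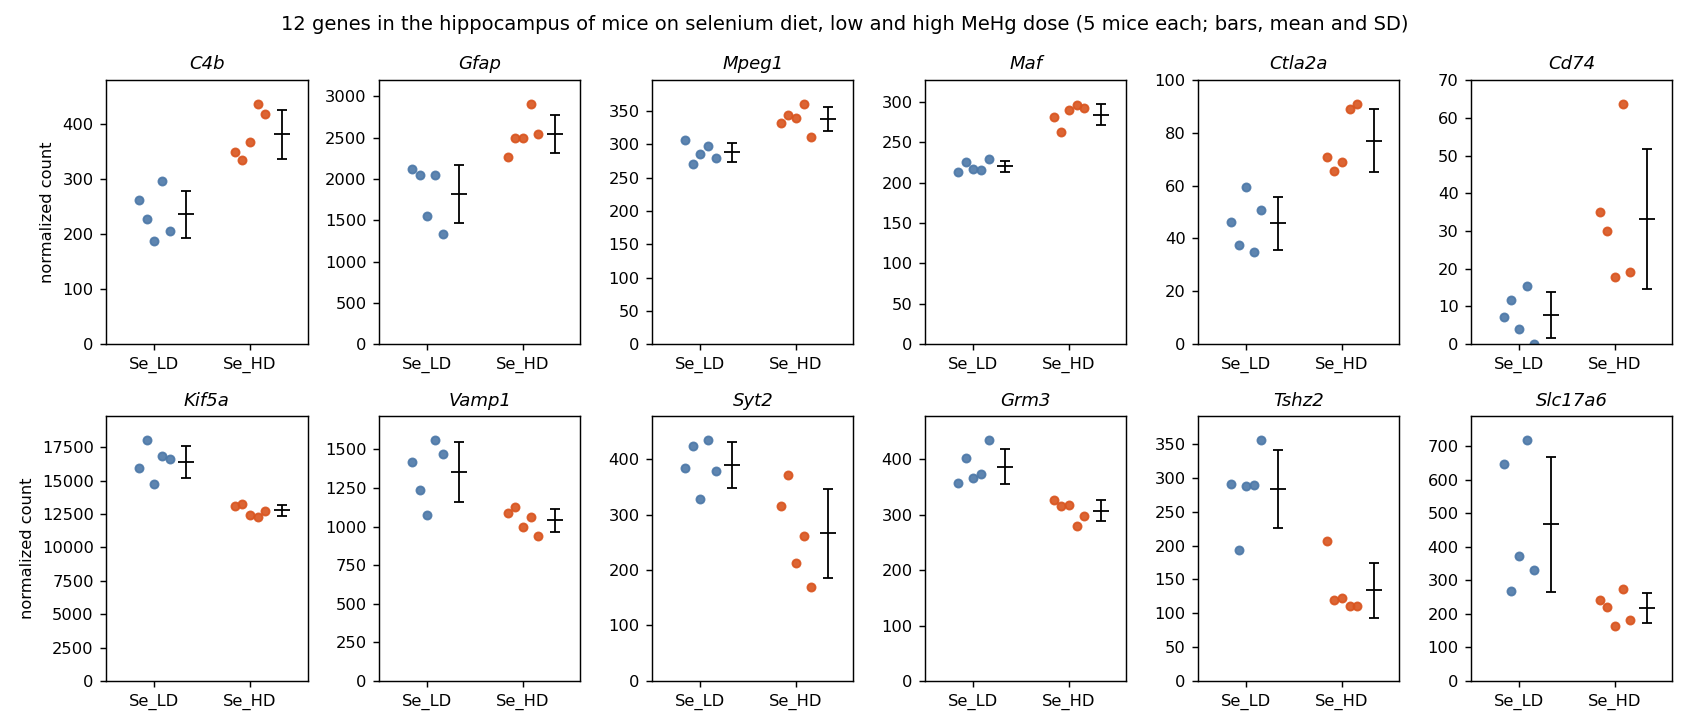
Normalized counts (y axis, from 0) of 12 genes in each of the 5 Se_LD (blue) and 5 Se_HD (orange) mice, with the mean and SD beside them in black (y axes differ). C4b, Gfap, Mpeg1, Maf, Ctla2a and Cd74 are higher in all 5 Se_HD mice, Kif5a and Grm3 are lower in all 5, and the groups of Vamp1, Syt2, Tshz2 and Slc17a6 overlap by one or more mice.

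Maf had 213, 225, 217, 216 and 229.6 normalized counts in Se_LD and 281, 262, 289.9, 296 and 292 in Se_HD mice. Both groups were tight and stood apart (log2 fold change 0.37, standard error 0.07, limma unadjusted p = 9.98e-05, adjusted p = 0.624). Fgl2, a fibrinogen-like protein of macrophages and endothelium, rose from 18.5 ± 6.41 to 57 ± 26.9 (SD, n = 5 each) normalized counts, with a log2 fold change of 1.5. Its highest values were in Se_HD mice 1, 4 and 5, and without these 3 mice its log2 fold change was 0.76 (limma unadjusted p = 0.0597).

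Of the 22 tested genes on the list of activated microglia, 3 rose and 0 fell, with a median log2 fold change of 0.10, against 0.0026 over all genes tested. Without Se_LD mice 3 and 5 the count was again 3 up and 0 down, but the median was -0.055, against -0.011 over all genes. The 3 were Mpeg1, a pore-forming protein of phagocytes, Lyz2, lysozyme, and Cybb, the NADPH oxidase subunit, the last named only because it completes the count. Mpeg1 had 307, 271, 286, 297 and 279.5 normalized counts in Se_LD and 332, 344, 339, 361 and 311 in Se_HD mice, a separation of the groups by a small step (log2 fold change 0.23, limma unadjusted p = 0.00541). The call of Mpeg1 was lost in the fit of all 4 groups (limma unadjusted p = 0.307). Lyz2 had 63.2, 33.5, 71.2, 67.2 and 54.6 against 140.3, 59, 77.4, 176 and 111. The Lyz2 groups overlapped, and the log2 fold change of 0.89 (limma unadjusted p = 0.00427) became 0.27 (unadjusted p = 0.354) without Se_HD mice 1, 4 and 5. Cybb had 5.5 ± 2.4 against 10.6 ± 4.14 (SD, n = 5 each).

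The 16 homeostatic microglia genes gave no call in either direction (median log2 fold change 0.08). Tmem119, a surface protein of microglia, had 138 ± 19.3 in Se_LD and 158 ± 10 (SD, n = 5 each) in Se_HD mice (log2 fold change 0.20, limma unadjusted p = 0.074). Of 12 tested genes of the Tyrobp adaptor and Fc receptors, only Fcgr1, the high-affinity IgG receptor, was called (log2 fold change 0.49, limma unadjusted p = 0.0228), and 6 of 25 alternatives lost that call. Tyrobp itself, the signalling adaptor of microglial receptors, was chosen for the text after its values were seen. It had 72.2, 71.1, 68.5, 87.9 and 83.3 normalized counts in Se_LD and 67.8, 68.1, 78.4, 106 and 69.6 in Se_HD mice. These ranges lie over each other, and the log2 fold change was 0.01 (standard error 0.14), with a sign that turns when single mice are left out.

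In the complement list 3 of 20 tested genes rose and 0 fell (median log2 fold change 0.21). Beside C4b these were C1qa, a chain of the C1q recognition protein, and Serping1, the C1 inhibitor. C1qa went from 206 ± 29.6 to 255 ± 15.6 (SD, n = 5 each) normalized counts (log2 fold change 0.32, limma unadjusted p = 0.00497), and 3 of 25 alternatives lost the call. The complement list gave 1 up and 0 down without Se_HD mice 1, 4 and 5, and 2 up and 1 down without Se_LD mice 3 and 5. Without Se_LD mice 1 and 4 it gave 5 up and 0 down (25% up, against 3.12% of all genes). The other C1q chains moved by 0.20 for C1qb (unadjusted p = 0.0717) and 0.22 for C1qc (unadjusted p = 0.169), short of the threshold. Serping1 had 41.5, 25.9, 22.4, 28.8 and 18.5 in Se_LD and 64.8, 33.6, 30.2, 87.6 and 66.2 in Se_HD mice. Its high values again came from Se_HD mice 1, 4 and 5, and its log2 fold change of 0.95 (limma unadjusted p = 0.00454) was 0.26 without them (unadjusted p = 0.408). C3, the central complement protein, had 16 ± 13.4 against 21.3 ± 8.71 (SD, n = 5 each) normalized counts and was not called (unadjusted p = 0.186).

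Of 30 tested reactive astrocyte genes 7 rose and 1 fell, with a median log2 fold change of 0.23. Gfap and Serping1 are 2 of the 7, and Osmr, the oncostatin M receptor, is another (log2 fold change 0.48, limma unadjusted p = 0.00687). Osmr had 46.7 ± 2.58 in Se_LD and 66.8 ± 13.9 (SD, n = 5 each) in Se_HD mice, with Se_HD mouse 3 inside the Se_LD range. Without Se_HD mice 1, 4 and 5 its log2 fold change was 0.22 (limma unadjusted p = 0.268), and the call was also lost in the fit of all 4 groups. The one that fell was Nes, nestin, the intermediate filament of neural precursors and some reactive astrocytes, from 197 ± 25.7 to 158 ± 9.51 (SD, n = 5 each), without overlap. Without Se_HD mice 1, 4 and 5 the list gave 2 up and 0 down, and without Se_LD mice 3 and 5 it gave 5 up and 1 down. Without Se_LD mice 1 and 4 it gave 9 up and 1 down (30% up, against 3.12% of all genes). Among 20 homeostatic astrocyte genes 0 rose and 1 fell. This was Kcnj10, the inward rectifier that clears potassium, with a log2 fold change of -0.27 (limma unadjusted p = 0.00387). In bulk tissue such as this, fewer cells of a type and less RNA per cell cannot be told apart.

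In the MHC list Cd74 and H2-Aa, a class II chain with a mean under 10 named only because it completes the count, rose, out of 17 genes, and 0 fell. Of 36 lysosome genes 1 rose and 1 fell, and of 21 interferon response genes also 1 rose and 1 fell. Without Se_LD mice 1 and 4 the lysosome list gave 5 up and 0 down (13.9% up, against 3.12% of all genes). It gave 0 calls without Se_LD mice 3 and 5 and 0 without Se_HD mice 1, 4 and 5. The study lists 20 genes as changed in both protein and RNA across its control, low and high dose groups without selenium. Its directions are against control, and not all 20 passed its planned comparisons at both levels. In the high against low dose comparison on selenium this list, chosen on other mice of the same series, held 2 genes up and 2 down. Gfap and Hrsp12 rose, and Vamp1 and Dusp3 fell. Hrsp12, a deaminase that removes reactive enamines, went from 334 ± 39.6 to 393 ± 21.3 (SD, n = 5 each) normalized counts (log2 fold change 0.24, limma unadjusted p = 0.013). Dusp3, a dual-specificity phosphatase, went from 1424 ± 107 to 1239 ± 104 (SD, n = 5 each), a log2 fold change of -0.20 (limma unadjusted p = 0.0146). Without Se_HD mice 1, 4 and 5 Hrsp12 was at 0.21 (limma unadjusted p = 0.124) and Dusp3 at -0.12 (limma unadjusted p = 0.244), and the 20 genes gave 1 up and 1 down. Apoe, the main lipoprotein of the brain, was not called, with 10316 ± 866 against 11059 ± 359.8 (SD, n = 5 each).

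Most called members of the neuronal lists were lower in Se_HD mice, with Grik2, a kainate receptor subunit, as an exception (log2 fold change 0.23, limma unadjusted p = 0.0348). This call of Grik2 was lost without Se_LD mice 1 and 4 and without Se_HD mice 1, 4 and 5. Kif5a (ENSMUSG00000074657, chromosome 10, 126662755 to 126700136) had 15919, 18006, 14712, 16820.5 and 16619 normalized counts in Se_LD mice. In Se_HD mice it had 13134, 13266, 12406, 12273 and 12748. All Se_HD mice lay below all Se_LD mice and varied little, with a mean of 12766 ± 436 against 16416 ± 1213 (SD, n = 5 each). The log2 fold change was -0.36 (standard error 0.08, limma unadjusted p = 0.00025, adjusted p = 0.787), and in DESeq2 on the recovered reads the adjusted p was 8.48e-05. In the axon and cytoskeleton list 3 of 20 genes fell and 0 rose. The other two, the kinesin Kif1a (log2 fold change -0.17) and the heavy neurofilament Nefh (-0.27), lost the call in 13 and 9 of the 25 alternatives.

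Vamp1 (ENSMUSG00000030337, chromosome 6, 125165569 to 125194561) had 1416, 1236, 1077, 1558 and 1474 normalized counts in Se_LD mice and 1086, 1124, 994, 1061 and 939.6 in Se_HD mice. Only Se_LD mouse 3 lay within the Se_HD range. Its log2 fold change was -0.37 (standard error 0.09, limma unadjusted p = 0.00109, adjusted p = 0.933; exact two-sided permutation p = 0.0238). Of 20 genes of synaptic release 5 fell and 0 rose, a share of 25% where 2.43% of all genes fell, while the median of the list was -0.04. The list gave 3 falls (15%) without Se_HD mice 1, 4 and 5 and 4 (20%) without Se_LD mice 1 and 4. Beside Vamp1 these included Syt2, a fast calcium sensor of release, Cplx1, complexin, and Slc17a6, the vesicular glutamate transporter VGLUT2. Syt2 had 384, 424, 328, 434 and 379.5 in Se_LD and 315, 371, 213, 261 and 169.5 in Se_HD mice, so that only Se_HD mouse 2 reached into the Se_LD range (log2 fold change -0.60, limma unadjusted p = 0.00231). Cplx1 fell by 0.16 on the log2 scale.

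The promoters of Gfap and Vamp1 are shown because these genes moved in opposite directions at the high dose on both diets. They are taken from RefSeq on build GRCm38.p6, which differs from the build of the counts, and run from 250 bases before to 50 after the gene's start, 5′ to 3′ on the gene's strand. Capitals mark the matches of 2 motifs, TTCNNNGAA, the letters bound by STAT factors, and CCAAT, both searched on both strands. Gfap lies on the minus strand at chr11:102897151-102897450 and holds 1 match of TTCNNNGAA and 0 of CCAAT. Vamp1 lies on the plus strand at chr6:125215331-125215630 and holds 0 matches of TTCNNNGAA and 3 of CCAAT, all read on the opposite strand. Of the 32851 promoters of this length, 8.3% hold TTCNNNGAA and 37.4% hold CCAAT. These matches describe the letters only.
Gfap: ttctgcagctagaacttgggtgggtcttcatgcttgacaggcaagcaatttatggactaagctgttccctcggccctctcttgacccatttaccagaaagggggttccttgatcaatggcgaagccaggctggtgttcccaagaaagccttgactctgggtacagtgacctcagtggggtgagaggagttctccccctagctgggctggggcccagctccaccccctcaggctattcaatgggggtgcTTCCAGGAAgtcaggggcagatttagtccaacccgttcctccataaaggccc
Vamp1: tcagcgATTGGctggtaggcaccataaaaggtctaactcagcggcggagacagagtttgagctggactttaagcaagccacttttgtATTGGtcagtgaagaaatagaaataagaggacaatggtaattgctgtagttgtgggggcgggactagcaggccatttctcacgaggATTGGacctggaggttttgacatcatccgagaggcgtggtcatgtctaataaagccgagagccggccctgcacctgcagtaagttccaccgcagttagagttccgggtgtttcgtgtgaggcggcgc

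Of 17 genes of GABA neurons 3 fell and 0 rose, with a median log2 fold change of 0.04. Pvalb, the calcium buffer of fast-spiking interneurons, fell from 346 ± 35.8 to 278 ± 31.4 (SD, n = 5 each) normalized counts (log2 fold change -0.31, limma unadjusted p = 0.00368). Its call was lost in the fit of all 4 groups (limma unadjusted p = 0.0972). The GABA transporter Slc6a11 (-0.21) and the fast potassium channel Kcnc1 (-0.19) fell with unadjusted p of 0.0448 and 0.0475, and 11 and 12 of 25 alternatives lost these calls. Gad1, which makes GABA, had 2586 ± 130.5 and 2693 ± 228 (SD, n = 5 each) normalized counts and was not called. Among 24 sodium and calcium channel genes 3 fell and 0 rose, with Scn4b, a sodium channel subunit, at -0.41 and Cacna1g, a T-type calcium channel prominent in the thalamus, at -0.29. Of 22 glutamate receptor genes 1 rose and 2 fell, Grm3 and Grm4, the latter by 0.71 on the log2 scale. Grm3, a presynaptic and glial metabotropic receptor, had 357, 403, 366, 373 and 434 normalized counts in Se_LD and 326, 316, 317, 279 and 299 in Se_HD mice, with no overlap (log2 fold change -0.33, limma unadjusted p = 0.000568). Of 20 immediate early genes 2 fell and 0 rose, Npas4 by 0.59 and Dusp1 by 0.47 on the log2 scale, and the median was -0.01. Without Se_LD mice 3 and 5 Npas4 was at -0.36 (limma unadjusted p = 0.0839) and the list gave 2 up and 1 down, while without Se_LD mice 1 and 4 it gave 0 up and 8 down. Rcan2, a calcineurin regulator, and Hivep1, a zinc finger protein, fell without overlap by 0.29 and 0.43 on the log2 scale.

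Tshz2 had the lowest p of all genes. It had 292, 193, 289, 290.4 and 355 normalized counts in Se_LD and 207, 119, 123, 110.4 and 110.0 in Se_HD mice. Se_HD mouse 1 stood above Se_LD mouse 2, and otherwise the groups were apart (log2 fold change -1.10, standard error 0.17, limma unadjusted p = 1.28e-05, adjusted p = 0.202). Slc17a6 had 648, 267, 372, 717 and 332 against 240.1, 221, 165, 275 and 181, and its highest values were in Se_LD mice 1 and 4. Chrna4, a nicotinic receptor subunit, and Ramp3, a receptor partner, were also highest in Se_LD mice 1 and 4. Ramp3 had 148, 22.6, 43.5, 124 and 40.7 in Se_LD and 16, 16.3, 9.44, 34.1 and 19.1 in Se_HD mice.

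These 2 mice also had the highest summed level of markers of neighbouring regions, a sum that a few abundant genes dominate. Tcf7l2, a transcription factor of thalamic neurons, had 398 and 558 normalized counts in Se_LD mice 1 and 4 and between 58.5 and 185 in the other 8 mice. The 13 markers of thalamus and striatum summed to 3354.8 and 3089.1 in these 2 mice, to between 1482.9 and 1861 in the other 3 Se_LD mice, and to between 1436.5 and 1792.2 in Se_HD mice. In the mean log2 level over the 13 markers, which weights them equally, mouse 1 stood apart with 6.91, while mouse 4, at 6.26, was level with Se_LD mouse 2 at 6.27 and close to the highest Se_HD mouse at 6.18. Of the 13, 4 fell (Ramp3, Rora, Lef1 and Tcf7l2) and 1 rose, and 1 marker was at 0 in some Se_LD mouse and none in all mice of a group. Without Se_LD mice 1 and 4 the list gave 0 up and 1 down. The log2 fold change of Slc17a6 was then -0.59 in place of -1.02 (limma unadjusted p = 0.00229) and that of Chrna4 -0.61 in place of -0.88 (limma unadjusted p = 0.00652), while Tshz2 stayed at -1.06, Kif5a at -0.36 and Syt2 at -0.55. The calls of Scn4b (-0.21, limma unadjusted p = 0.154), Grm4 (-0.44, unadjusted p = 0.102), Cacna1g (-0.19, unadjusted p = 0.0539), Nefh (-0.13, unadjusted p = 0.267), Kif1a (-0.13, unadjusted p = 0.143), Kcnc1 (-0.10, unadjusted p = 0.323), Slc6a11 (-0.091, unadjusted p = 0.297) and Cplx1 (-0.14, unadjusted p = 0.0729) were lost, as were those of Rora, Lef1, Tcf7l2, Gss, Nfe2l2, Rbpms, Dact1, Ankrd34c, Atf4, Hspd1, Rorb, Abcg1, Abca7, Daam2, Grik2, Kcnj9 and Sox2, 25 in all of the 76 called genes that are named, and the sodium and calcium channel list and the axon and cytoskeleton list each went from 3 to 1 down. The fall of Vamp1 was then -0.27 (limma unadjusted p = 0.0157), and among all genes the split became 567 up and 266 down (3.12% and 1.46% of 18168 genes). This setting keeps Se_LD mice 2, 3 and 5, of which mice 3 and 5 are low in choroid plexus genes, as given below. The part of neighbouring tissue in these falls was not tested beyond these values.

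Other tissues also differed between mice. The 14 choroid plexus markers summed to 1152 and 317.5 in Se_LD mice 3 and 5 and to between 9795.2 and 39245 in the other 8 mice, with 3 markers at 0 in some Se_LD mouse and none at 0 in all. Ttr, which makes up 84.7% of the Se_LD sum, had 718 and 96.3 normalized counts in those 2 mice. No choroid plexus gene was called, although the median log2 fold change was 1.68. Without Se_LD mice 3 and 5 it was -0.45, and the count of all genes called grew from 846 to 1424 (724 up/700 down, 3.96% and 3.83% of 18280 genes). The calls of 15 of the 76 called genes that are named were lost in that setting, namely C1qa, Fcgr1, Nckap1l, Mrc1, Kif1a, Npas4, Gpx4, Nfe2l2, Rbpms, Hspb8, Atf4, H2-Aa, Rorb, Kcnj9 and Sox2. In that setting 11 of 17 myelin genes fell, none of which was called with all 10 mice. The 17 myelin genes summed to 41822.2 and 37514 in Se_LD mice 3 and 5 and to between 56770.7 and 63677.5 in the other Se_LD mice. Leaving mice 3 and 5 out thus raises the Se_LD level of these genes. In Se_HD mice the sums lay between 36917.8 and 67609.4.

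Of the 11 markers of meninges and fibroblasts 10 rose and 0 fell, with a median log2 fold change of 1.04. Ogn, osteoglycin, had 46, 43.5, 40.9, 106 and 17.6 normalized counts in Se_LD and 165, 65.4, 62.3, 274 and 192 in Se_HD mice. Col3a1, Aldh1a2 and Slc22a6 had their highest values in the same Se_HD mice 1, 4 and 5. The mean log2 level of the 11 markers was 7.74, 8.21 and 7.87 in these 3 mice and 6.39 and 6.37 in the other 2 Se_HD mice, against 5.4 to 6.97 in Se_LD mice, and no marker was at 0. Without these 3 mice 0 of 11 were called (median 0.08), and the count over all genes was 629 (183 up/446 down, 1.02% and 2.48%). In the same setting C4b (log2 fold change 0.59), Gfap (0.48), Maf, Kif5a (-0.35) and Vamp1 (-0.34) kept their calls, and Serping1, Lyz2 and Fgl2 did not. In all 46 of the 76 called genes that are named lost their calls in this setting, which leaves 2 Se_HD mice. The others were C1qa, Fcgr1, Osmr, Cybb, H2-Aa, Mrc1, Nes, Kcnj10, Cd37, Nckap1l, Cplx1, Slc6a11, Kcnc1, Nefh, Kif1a, Cacna1g, Scn4b, Rora, Tcf7l2, Dio3, Gpx4, Gstm1, Gss, Nfe2l2, Hrsp12, Dusp3, Slc6a20b, Rbpms, Dact1, Hspb8, Atf4, Hspd1, Ogn, Col3a1, Aldh1a2, Slc22a6, Rxrg, Bcl2l11, Abcg1, Abca7, Daam2, Grik2 and Sox2. The sodium and calcium channel list went from 3 to 0 down. Slc6a20b, a transporter gene also listed among the lowest p-values (log2 fold change 1.87), lost its call without these 3 mice. Its reads can be shared with a near copy. The perivascular macrophage marker Mrc1 rose from 25.3 ± 4.7 to 38.8 ± 13.8 (SD, n = 5 each) and lost its call in 10 of 25 alternatives.

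The labelled tissue was present in all mice. The 15 markers of the hippocampal subfields summed to between 10658.5 and 12741.9 in Se_LD and between 10935.9 and 13720.5 in Se_HD mice, with 0 called. Red cell markers (6) and vessel markers (16) gave 0 calls, and of 7 tested peripheral leukocyte markers 1 rose.

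**Figure D2:**
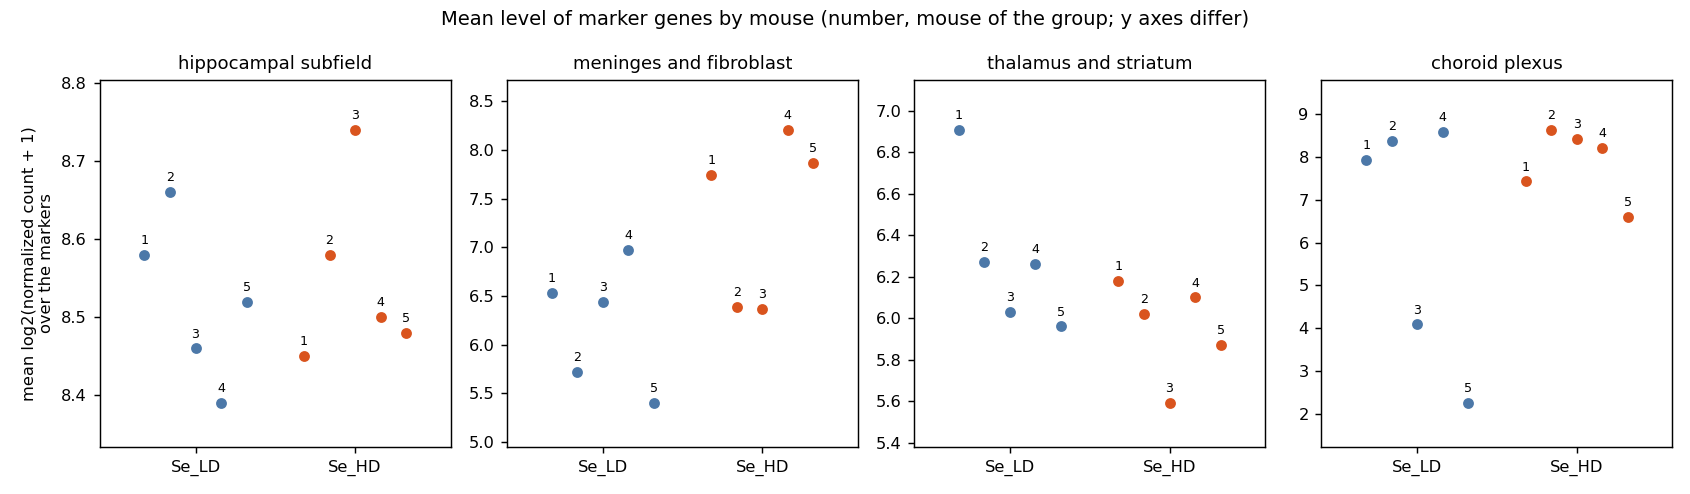
Mean over the markers of log2(normalized count + 1) for 4 marker lists, one point per mouse, numbered within its group (y axes differ). Hippocampal subfield genes lie between 8.39 and 8.74 in all 10 mice, meningeal genes are high in Se_HD mice 1, 4 and 5, thalamus and striatum genes are highest in Se_LD mouse 1, and choroid plexus genes are low in Se_LD mice 3 and 5.

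Selenoprotein genes, the family into which dietary selenium is built, moved little between the doses. Of 18 tested members 2 rose and 0 fell (median log2 fold change 0.05), and 1 of the 19 in the table was too low to test. Gpx4, the glutathione peroxidase that reduces lipid peroxides, went from 1018 ± 84.2 to 1167 ± 127 (SD, n = 5 each) normalized counts (log2 fold change 0.19, limma unadjusted p = 0.031), and 8 of 25 alternatives lost the call. Dio3, the deiodinase that inactivates thyroid hormone, had 4.51, 5.85, 54, 48.8 and 13.9 in Se_LD and 77, 48.1, 51, 60.3 and 86.4 in Se_HD mice. Se_LD mice 3 and 4 reached the Se_HD range and the other 3 did not (log2 fold change 1.89, standard error 0.53, limma unadjusted p = 0.00287), and without Se_HD mice 1, 4 and 5 the unadjusted p was 0.0784. Gpx1, the cytosolic glutathione peroxidase, had 137 ± 27.9 against 148 ± 26.7 (SD, n = 5 each). Sepp1, the selenium carrier of plasma, had 1896 ± 169 against 2114 ± 329 (SD, n = 5 each), and Gpx3, the secreted peroxidase, 41.8 ± 12.8 against 56 ± 16.3 (SD, n = 5 each), none of them called. The 12 genes of selenium handling gave 0 calls.

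Of 18 genes of metallothioneins and metal transport 0 were called (limma, unadjusted), with a median log2 fold change of 0.01. The metal-binding metallothioneins had log2 fold changes of 0.10 for Mt1, 0.11 for Mt2 and -0.11 for Mt3, with standard errors of 0.10, 0.12 and 0.07. Of 13 genes that remove superoxide and peroxide 0 were called, with Sod1 at 0.13, Sod3 at 0.15 and Cat, catalase, at 0.07. In the NRF2 list 2 of 25 rose and 1 fell. Gstm1, a glutathione transferase, rose from 1368 ± 83.6 to 1665 ± 176 (SD, n = 5 each) (log2 fold change 0.28, limma unadjusted p = 0.00257). Nfe2l2, the NRF2 factor itself, rose by 0.27, and Gss, glutathione synthetase, fell by 0.31 on the log2 scale, with unadjusted p of 0.0357 and 0.0184. Without Se_HD mice 1, 4 and 5, those high in meningeal markers, Gstm1 was at 0.13 (limma unadjusted p = 0.195), Nfe2l2 at 0.10 (unadjusted p = 0.487) and Gss at -0.074 (unadjusted p = 0.587), and the NRF2 list gave 0 calls. Of 23 endoplasmic reticulum stress genes 3 rose, Atf4 among them (0.16), and of 16 heat shock genes Hspb8 (0.56) and Hspd1 (0.16) rose, all with unadjusted p between 0.0248 and 0.0475. Of 25 alternatives, 14 lost the call of Atf4, 10 that of Hspd1 and 6 that of Hspb8. The endoplasmic reticulum stress list gave 0 calls without Se_LD mice 3 and 5, 0 without Se_HD mice 1, 4 and 5, and 1 without Se_LD mice 1 and 4.

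Whether the dose effect differed between the diets was tested as an interaction over the 20 libraries of Se_HD, Se_LD, HD and LD. The HD against LD comparison shares no library with that on selenium. It called 1274 of 19047 genes (6.69%) at an unadjusted p under 0.05, 828 up (4.35%) and 446 down (2.34%), and 2 genes, C4b and Lyz2, by adjusted p (0.0105%). Groups without overlap were found there for 262 genes (1.38%), 170 above (0.893%) and 92 below (0.483%). Over the 20503 genes tested for interaction limma gave 0 with an adjusted p under 0.05 (lowest 0.32) and edgeR gave 0, while DESeq2 gave 4, namely Cd37, Nckap1l, Mpeg1 and Tyrobp. At an unadjusted p under 0.05 the interaction called 846 genes (4.13%), 262 with a larger and 584 with a smaller high over low ratio on selenium, 1.28% and 2.85% of the genes tested. The total share is no larger than a threshold of 0.05 gives with no true difference. So no single gene is shown to differ between the diets after adjustment in limma, and the following values describe the unadjusted interaction.

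Of the 24 activated microglia genes 19 had a negative interaction called at an unadjusted p under 0.05 and 0 a positive one, where 2.85% of all genes were called negative. For 13 genes of Tyrobp and Fc receptors the count was 9, for 21 complement genes 9, for 16 homeostatic microglia genes 5, for 31 reactive astrocyte genes 7 and for 36 lysosome genes 13, with 0 positive in each. The medians of the dose effect on selenium were 0.10, 0.004, 0.21, 0.08, 0.23 and 0.06, and those without selenium were 1.58, 1.02, 0.92, 0.54, 1.1 and 0.30, in the same order. These lists overlap and their genes share cells, so the counts are not separate results, and the lists were chosen with results of these mice known. Among the neuronal lists, 3 of 30 potassium channel genes had a positive interaction called and 0 a negative one, where 1.28% of all genes were called positive. Of these 30 genes 2 fell on selenium, Kcnc1 and Kcnj9, and 9 fell and 1 rose without it. Synaptic release (20 genes), GABA neurons (17) and immediate early genes (20) had 1 positive call each, and the axon and cytoskeleton (20), glutamate receptors (22) and sodium and calcium channels (24) had 0 in either direction.

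**Figure D3:**
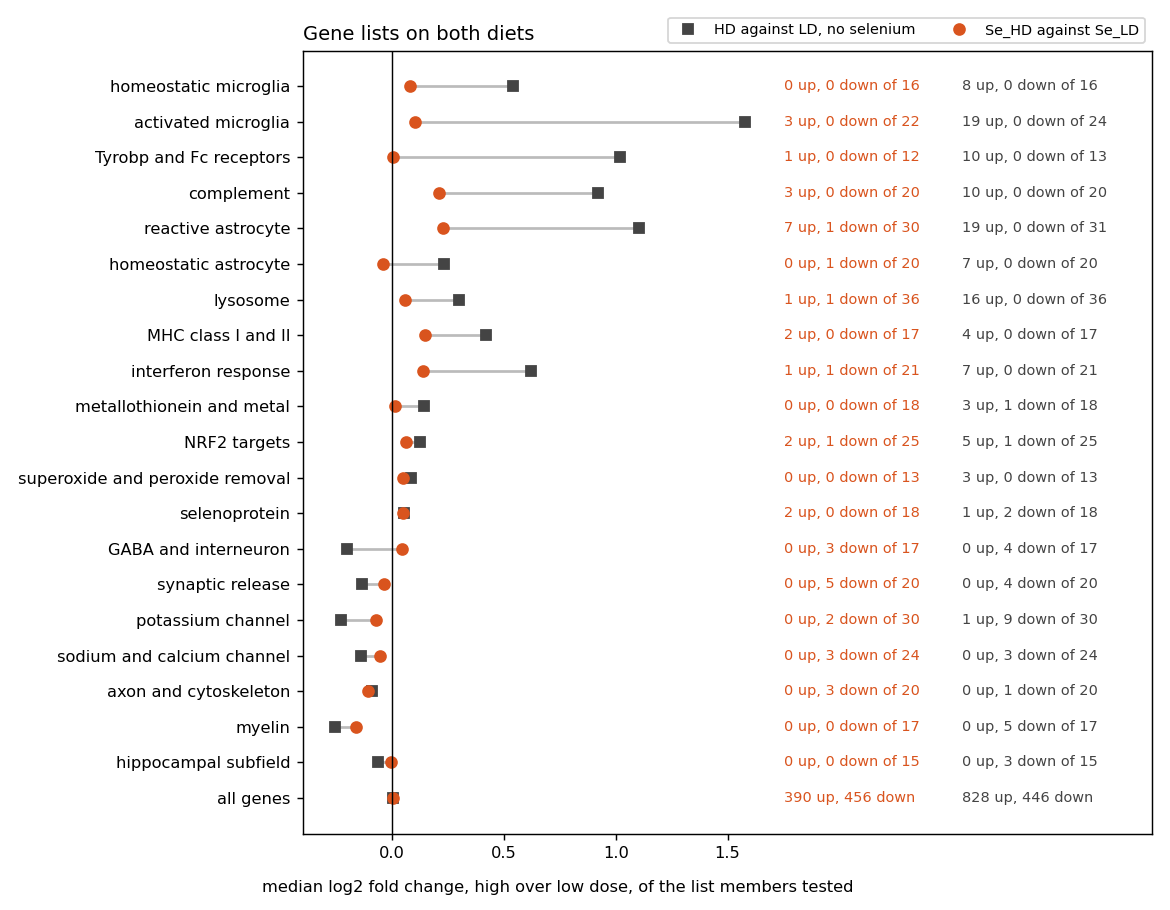
Median log2 fold change of high over low dose for 20 gene lists and all genes tested, on selenium (orange circles) and without selenium (dark squares), with the number of members up and down at an unadjusted limma p under 0.05 at the right in the same colours. The distance between the points is largest for activated microglia, Tyrobp and Fc receptors, and reactive astrocyte genes, and the points lie close together for selenoprotein and for axon and cytoskeleton genes.

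C4b had 238, 159.7, 256, 187 and 184 normalized counts in LD and 492, 1573, 519, 772 and 1102 in HD mice, so the lowest HD mouse lay above the highest Se_HD mouse. Its log2 fold change was 1.99 without and 0.70 with selenium (interaction -1.29, standard error 0.31, unadjusted p = 0.000364, adjusted p = 0.544). Gfap had 1891 ± 232 (SD, n = 5) in LD and between 4080.2 and 32820.3 in HD mice, with log2 fold changes of 2.28 and 0.50 (interaction -1.77, unadjusted p = 0.000777, adjusted p = 0.637). Mpeg1 rose on both diets, by 1.66 and 0.23 on the log2 scale, and its interaction had an unadjusted p of 9.33e-05 (adjusted p = 0.383).

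Tyrobp had between 57.2 and 91 normalized counts in LD and between 118 and 402 in HD mice, a log2 fold change of 1.55 against 0.01 on selenium (limma interaction, unadjusted p = 0.000135, adjusted p = 0.461). Csf1r, the receptor on which microglia depend, also named after its values were seen, had log2 fold changes of 0.84 and 0.02 (limma interaction, unadjusted p = 0.000253, adjusted p = 0.544). Values of the LD and Se_LD groups were alike for C4b, Gfap, Mpeg1 and Tyrobp, with means of 205 and 236, 1891 and 1817, 294 and 288, and 77.8 and 76.6, and the groups at the high dose were far apart. The HD mice varied far more than the Se_HD mice, with an SD of 453 against 44 for C4b and 11886 against 233 for Gfap.

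Calls were compared between the diets. Among 14094 genes with a mean of at least 10 in both comparisons, 653 were called on selenium and 936 without, and 111 were called in both, which is 17% of the first and 11.9% of the second. The direction was the same for 106 of the 111 (61 up/45 down). Over all 14094 genes the sign was the same for 56.3%, and over the 936 genes called without selenium for 71.2%. The 5 of the 111 with opposite directions were Cd37, Nckap1l, Dock2, Daam2 and Bcl2l11, the first 4 of which were named after their values were seen, and all 5 were lower at the high dose on selenium and higher at the high dose without it. Cd37, a tetraspanin of leukocytes, had 34.3, 48.5, 35.6, 47.3 and 49.1 normalized counts in Se_LD and 32.8, 32.7, 34, 22.8 and 33.7 in Se_HD mice. The step between the nearest mice was small, and 6 of 25 alternatives lost the call (log2 fold change -0.45, limma unadjusted p = 0.0251). Nckap1l and Dock2, which control actin in blood cells and microglia, fell by 0.33 and 0.73 on the log2 scale on selenium. The call of Nckap1l was lost in 3 of 25 alternatives, among them without Se_LD mice 3 and 5 (-0.24, limma unadjusted p = 0.0975) and without Se_HD mice 1, 4 and 5 (-0.26, limma unadjusted p = 0.103).

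Kif5a, Vamp1, Syt2 and Pvalb fell on both diets, and their interactions were not called. Kif5a had 15459.9 ± 1413 in LD and 11340.1 ± 1811 (SD, n = 5 each) in HD mice, with log2 fold changes of -0.46 without and -0.36 with selenium (interaction 0.10, standard error 0.16, unadjusted p = 0.54). For Vamp1 they were -0.50 and -0.37 (limma interaction, unadjusted p = 0.357), for Syt2 -0.77 and -0.60 (unadjusted p = 0.593) and for Pvalb -0.55 and -0.31 (unadjusted p = 0.38). Maf also rose on both diets, by 0.33 and 0.37, and Gstm1 by 0.30 and 0.28. An interaction p above the threshold does not show that the effects were equal.

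Among neuronal and selenium genes, Gad1 and Sepw1 had an interaction in the other direction. Sepw1, a small selenoprotein abundant in brain, had 5872 ± 1339 in LD and 3257 ± 811 (SD, n = 5 each) in HD mice. On selenium it had 5828, 5709, 5351, 5045 and 6063 in Se_LD and 5108, 5054, 5423, 5095 and 5145 in Se_HD mice, nearly one level. The log2 fold changes were -0.85 and -0.11, and the interaction of 0.74 had a standard error of 0.20 (unadjusted p = 0.0011, adjusted p = 0.784). Gad1 had log2 fold changes of -0.29 and 0.06 (limma interaction, unadjusted p = 0.0102, adjusted p = 0.999). Mt2 had 0.81 and 0.11 (limma interaction -0.70, unadjusted p = 0.0188).

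**Figure D4:**
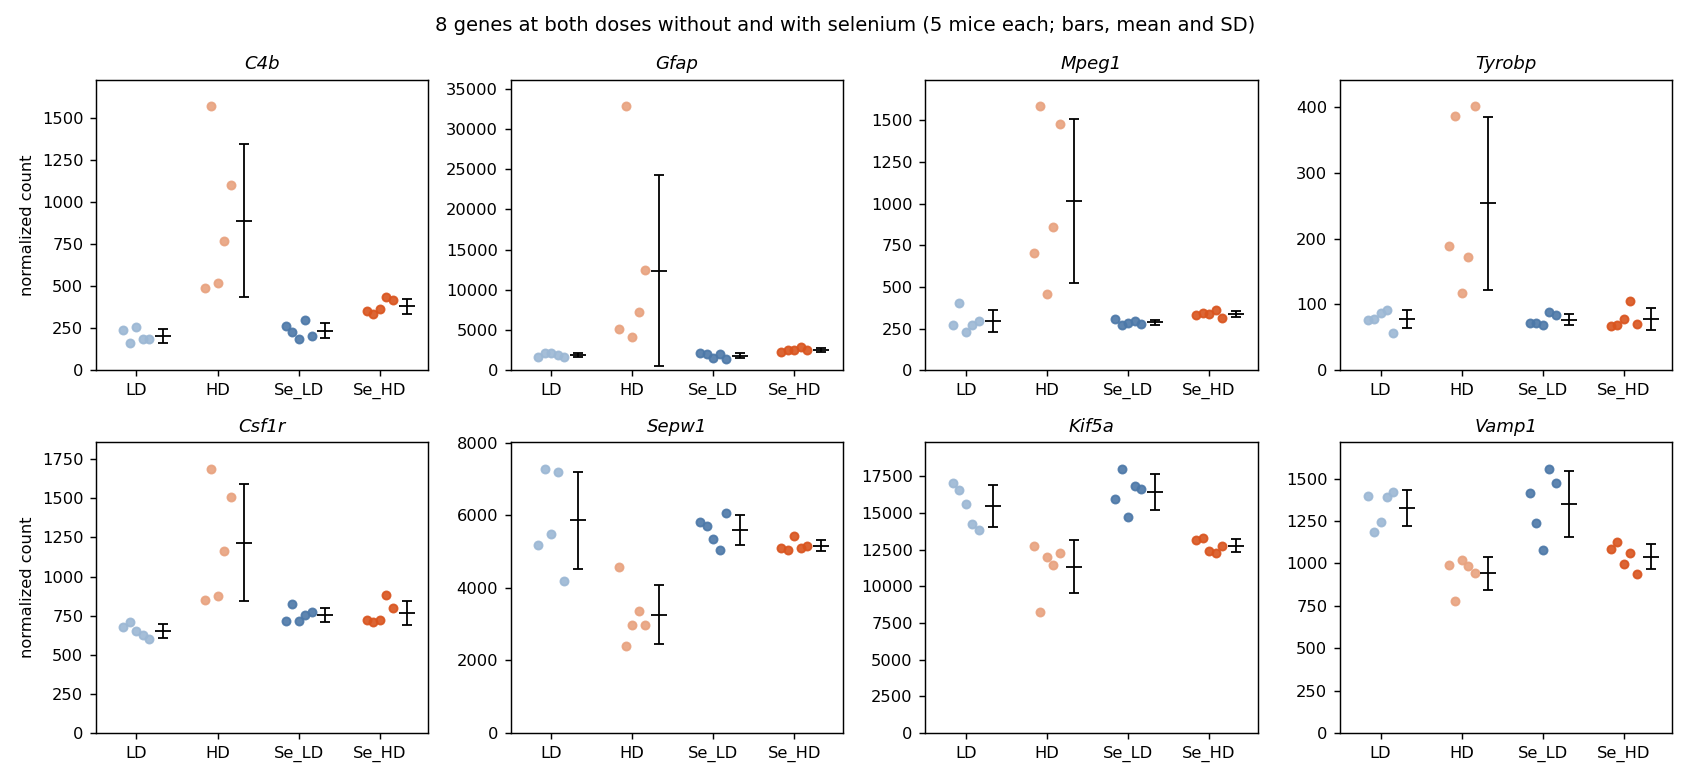
Normalized counts (y axis, from 0) of 8 genes in the LD, HD, Se_LD and Se_HD groups, one point per mouse and the mean with SD in black. HD mice reach 1573 counts for C4b and 32820.3 for Gfap, where the highest Se_HD mice have 437 and 2909, while Kif5a and Vamp1 are lower at the high dose on both diets.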

How the data were processed

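RNA of 10 hippocampi, 5 Se_LD and 5 Se_HD, was compared, with 5 LD and 5 HD libraries for the interaction. Per the labels and methods, libraries were made with a stranded mRNA kit. The authors' notes name Trim Galore 0.4.2, FastQC, HISAT2, featureCounts, DESeq2 and the build NCBIM37. The strand setting and treatment of reads on near-identical genes are not given in the sources used here. The deposited values are a signal: read counts per gene divided by the authors' size factors over all 30 libraries. All 642360 values were whole reads after multiplication by a recovered factor, within 0.01 of a read, and 0 columns lacked a sample.

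Genes whose normalized counts added up to 10 or more over the fitted libraries were tested on log2(value + 1) with limma 3.58.1 (variance trend, two-sided, Benjamini-Hochberg adjustment) in R 4.3.3, so fold changes of low genes are understated. Exact permutation tests over 5 against 5 mice cannot give a p below 0.00794. The recovered reads were also tested with DESeq2 1.42.0 and edgeR 4.0.16. Other alternatives were other pseudocounts, filters, normalizations, moderation of the variance, a title set covariate, one fit of all 4 groups and leaving out each mouse. In data simulated from the Se_LD and Se_HD libraries with 200 of 18870 genes changed by 1 on the log2 scale, limma recovered 168 (84%), with 12 false calls. For the interaction it recovered 122 of 200 (61%), with 5 false calls. The changed genes averaged 10 or more normalized counts, and genes were drawn independently, without shared differences in tissue content. Recovery of smaller changes, such as that of Gfap (0.50), was not measured. Tables and plots used Python 3.11.15, pandas 2.3.3, numpy 2.4.6 and matplotlib 3.10.9.

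The members and gene lists were chosen with earlier results of these data known. Named are a part of these: the 15 genes of lowest p, the 8 highest and 8 lowest fold changes among genes without overlap between groups and with an unadjusted p under 0.05 (both averaging 10 or more normalized counts), up to 4 members of lowest p per list, and members of the selenoprotein, complement and metallothionein lists and of the 20 genes listed by the study. Tyrobp, Csf1r, Cd37, Nckap1l, Dock2, Daam2, Cybb and H2-Aa fall outside this rule. Some members of the lists are counted but not reported here by name.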

Additional observations from a re-analysis of the deposited data

Results flagged for a closer look

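In 4 of 174 groups of 5 mice, a single mouse was set apart, its gap to the next mouse exceeding 0.71 of the range (Dixon's ratio), where chance gives about 5%, or 8.7 groups. For genes the ratio was taken on log2 of the normalized count plus 1, not on the counts given below. Cd37 was low in Se_HD mouse 4, with 22.8 normalized counts and a ratio of 0.901. Tshz2 was high in Se_HD mouse 1, with 207 normalized counts and a ratio of 0.826. Hivep1 was high in the same mouse, with 314 and a ratio of 0.761, and Sepw1 was high in Se_HD mouse 3, with 5423 and a ratio of 0.749.

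Cd37 and Nckap1l had groups that did not overlap on either diet, with opposite directions, which is also what they were picked for after their values were seen. A difference between the diets is not shown for either gene after adjustment in limma. Their interactions were -1.57 and -1.26 on the log2 scale, with limma adjusted p of 0.343 and 0.383 over all genes, and DESeq2 on the recovered reads gave adjusted p of 0.01 and 0.021.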

How the results depend on the processing

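The main limma fit, without a covariate, gave 0 genes by adjusted p between the doses on selenium. DESeq2 gave 4 (Kif5a, C4b, Tshz2 and Fgl2), the title set covariate 4 (C4b, Tshz2, Chrna4 and Slc17a6), and leaving out single mice 0 to 1, which was Tshz2 without Se_LD mouse 2 or Se_HD mouse 1. Leaving out Se_LD mice 1 and 4 gave 1 (C4b), a gene in which those are the highest Se_LD mice. For the interaction DESeq2 gave 4 and leaving out single mice 0 to 4, the 4 (Nckap1l, Mpeg1, Cst7 and Tyrobp) without HD mouse 3. The unadjusted count of 846 ranged from 591 (all 4 groups in one fit) to 1070 (title set covariate) under the planned settings that keep all mice, from 595 to 1172 when single mice were left out, and reached 1424 without Se_LD mice 3 and 5. The causes were not tested. The 3 settings that leave out 2 or 3 mice by their marker levels were chosen after seeing the data.

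Of the 66 genes called among the 86 tested for the text, 20 kept the call under every setting run and 0 changed direction. Signs turned only in genes that were not called. Leaving out single mice gave Tyrobp -0.10 to 0.061, Csf1r -0.037 to 0.048, Sod3 -0.019 to 0.22 and Cat -0.0080 to 0.12. Without Se_LD mice 3 and 5 Gpx1 was -0.014, Sod3 -0.10, Cat -0.087 and Ttr -0.37. Without Se_HD mice 1, 4 and 5 Tyrobp was -0.061, Csf1r -0.081 and Sepp1 -0.075, and without Se_LD mice 1 and 4 Csf1r was -0.012. The labels give no shared replicate numbers. Each set of consecutive titles holds 1 mouse of either group, and the fit with these pairs as a block is the title set covariate above. The correlations of deviations within the pairs were 0.483, -0.135, 0.316, -0.133 and 0.25, not all above 0.1, so the mice were not treated as paired. This rule does not test for an effect of the sets. The number of genes by adjusted p depends on the choice, with 0 without and 4 with the sets in the limma fit. Depth limits genes under 10 normalized counts, which make up 188 (22.2%) of the 846 calls.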

Other observations

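Lists not described above had these calls between the doses on selenium. Of 20 genes of apolipoproteins and lipid transport 2 rose (10%) and 3 fell (15%), where 2.08% and 2.43% of all genes did. Rxrg, a retinoid receptor, rose by 0.81 on the log2 scale, and Abcg1 and Abca7, lipid exporters, fell by 0.20 and 0.28. The 3 falls of this list were 0 without Se_LD mice 1 and 4, 0 without Se_HD mice 1, 4 and 5, and 6 without Se_LD mice 3 and 5. Of 21 cholesterol synthesis genes Insig1, a brake on the pathway, fell by 0.25 and 0 rose. Of 18 circadian clock genes Rora and Rorb fell by 0.49 and 0.28, and 0 rose. Rora is also a thalamus marker, and without Se_LD mice 1 and 4 it was at -0.18 (limma unadjusted p = 0.0888), and without Se_HD mice 1, 4 and 5 at -0.51 (limma unadjusted p = 0.0558). Of 16 genes of neurogenesis and proliferation Sox2 fell by 0.16, and of 20 apoptosis genes Bcl2l11, which promotes cell death, fell by 0.36. All these calls are at an unadjusted limma p, with adjusted p above the threshold.

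The 17 myelin genes gave 0 calls with all mice (median log2 fold change -0.16) and 11 falls without Se_LD mice 3 and 5 (median -0.40). Those 2 mice had the lowest myelin sums of the Se_LD group. The 20 immediate early genes gave 2 falls with all mice and 8 without Se_LD mice 1 and 4 (median -0.30), and 2 rises and 1 fall without Se_LD mice 3 and 5. The 14 choroid plexus genes gave 0 calls with all mice and 14 rises without Se_LD mice 1 and 4 (median 2.97). That setting keeps Se_LD mice 2, 3 and 5, and mice 3 and 5 had choroid plexus sums of only 1152 and 317.5. The 14 rises therefore follow from which mice were kept. Over all genes 3.12% rose and 1.46% fell in that setting.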
